A study of Mus musculus with 21 samples.

Results

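The genes described here are 10 members of the integrated stress response in cells of the mouse main olfactory epithelium: Eif2ak3, Atf4, Atf5, Ddit3, Atf3, Nupr1, Trib3, Chac1, Asns and Ddit4. They were taken by name, not by their values, from 23587 genes in the gg8+OMP table and 22918 genes in the gg8 table, and all 10 were present in both. The libraries came from cells sorted by mCherry from mice that carried a tetO transgene switched on by a tTA driver. HT mice had the genotype gg8tTA; OMPtTA; tetO-HyperTRIBE_mCherry and gave 3 libraries of sorted immature and mature olfactory sensory neurons (HT OSN) and 3 of mCherry-negative cells (HT negative). MexHT mice had the genotype gg8tTA; OMPtTA; tetO-Mex3a_HyperTRIBE_mCherry and gave 6 OSN and 5 negative libraries. gg8 MexHT mice lacked the OMPtTA driver (gg8tTA; tetO-Mex3a_HyperTRIBE_mCherry) and gave 2 libraries of immature OSN and 2 of negative cells. HyperTRIBE is an RNA-editing domain that marks the RNAs bound by its fusion partner, and Mex3a is an RNA-binding protein. Every group, the HT controls included, carried gg8tTA and a HyperTRIBE transgene, so no library shows the level of a member in neurons without HyperTRIBE. The labels tie an OSN library to the negative library of the same number by mouse, and the sources used here give no age, sex or strain. All gg8+OMP libraries carry 1 date in their names and all gg8 libraries another, so driver and date cannot be told apart.

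The integrated stress response lowers general protein synthesis through phosphorylation of the initiation factor eIF2, while messages such as Atf4 and Atf5 are then translated better. PERK, the product of Eif2ak3, is the eIF2 kinase that senses unfolded protein in the endoplasmic reticulum (ER). In olfactory sensory neurons, an odorant receptor that enters the ER is known to activate PERK, which raises ATF5 protein. That signal helps to fix the choice of receptor and the maturation of the neuron, and it ends when the neuron makes Adcy3. Because Atf4 and Atf5 are controlled in translation, the RNA levels given here do not measure the activity of the pathway or the amount of these proteins.

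The sequences bear on which members carry an element for ATF4 near their start site. The windows of RefSeq (build GRCm38.p6, 250 bases before to 50 bases after a start) held 11 windows for the 10 members. In the Trib3 window, the bases just after the start were not found in a GENCODE transcript of the gene. The windows were searched on both strands for TGATGNAA, the C/EBP-ATF response element bound by ATF4 dimers, and for its strict form TGATGCAA. A match to TGATGNAA lay before the start site in 4 members (Atf3, Chac1, Nupr1 and Asns) and after it in Trib3. Over all 32851 windows, 3.97% held such a match, and 2.56% did among 15416 windows of genes whose mean reached 1 TPM. The strict form, which overlaps the other by definition, was found in Atf3, Chac1 and Nupr1 and in 0.895% of all windows. No window of a member held the ER stress element, CCAAT and CCACG separated by 9 bases, which 0.119% of all windows held. These matches describe letters in a window and do not show binding. The stretches are printed along the gene's strand with the match in capitals. In Atf3, Chac1 and Nupr1 the capitals are the element read on the opposite strand. They lie at chr1:191183406-191183473 (Atf3, minus strand), chr2:119351019-119351086 (Chac1, plus strand), chr7:126625543-126625610 (Nupr1, minus strand) and chr6:7693210-7693262 (Asns, minus strand), all upstream of the first exon.
Atf3: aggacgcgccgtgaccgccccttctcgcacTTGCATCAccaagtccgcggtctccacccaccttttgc
Chac1: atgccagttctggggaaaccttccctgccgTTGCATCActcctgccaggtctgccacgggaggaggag
Nupr1: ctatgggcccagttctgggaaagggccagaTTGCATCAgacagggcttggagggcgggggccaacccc
Asns: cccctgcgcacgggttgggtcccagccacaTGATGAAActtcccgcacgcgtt
The match began 110 bases before the start site in Atf3 and in Nupr1, 193 bases before it in Chac1 and 23 bases before it in Asns.

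Levels are given in TPM, the deposited measure of transcript abundance, which is scaled by transcript length so that genes can be compared within a library. Whole counts recovered from the TPM values put the depth at 7425287 to 15215941 counts per library, and the lowest count of any member was 14 (Nupr1 in a gg8 MexHT OSN library). The construct was visible in the label check: Mex3a ran from 24.0 to 61.5 TPM in HT OSN but from 328 to 1271 TPM in MexHT OSN, where MexHT OSN replicates 5 and 6 had 1271 and 679 TPM. Immature OSN markers summed to 3650 to 3738 TPM in HT OSN, 5442 to 6424 TPM in MexHT OSN and 5272 to 7332 TPM in gg8 MexHT OSN. Mature OSN markers summed to 8925 to 13660, 2141 to 6387 and 318.3 to 829.3 TPM in the same groups, and no marker of either list was at 0 in all libraries of a group. The mCherry-negative cells were not free of neurons, since mature OSN markers summed to 5313 to 10880 TPM in HT negative and 544 to 7044 TPM in MexHT negative libraries. Fewer cells of a type and less RNA per cell cannot be told apart in such bulk libraries.

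Among the 10 members, Atf5 was the most abundant RNA in every group of the gg8+OMP table. Its mean was 1253 ± 101 TPM (SD, n = 3) in HT OSN, 1198 ± 246 TPM (n = 6) in MexHT OSN, 981 ± 294 TPM (n = 3) in HT negative and 755 ± 121 TPM (n = 5) in MexHT negative libraries. By mean level over all genes it was at rank 39 in HT OSN and at rank 35 in MexHT OSN. Atf4 followed at 418 ± 15.4 TPM in HT OSN. Ddit3 (230 ± 7.74 TPM), Atf3 (135 ± 35.5 TPM) and Eif2ak3 (65.9 ± 8.44 TPM) lay below it in the same libraries. Asns, Nupr1, Ddit4 and Trib3 had means of 49.0, 31.4, 29.96 and 27.8 TPM there, where Nupr1, Ddit4 and Trib3 did not differ beyond their spread. Chac1 was the scarcest at 7.69 ± 1.02 TPM. All 10 members passed the filter of a mean of at least 1 TPM in all comparisons.

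**Figure D1:**
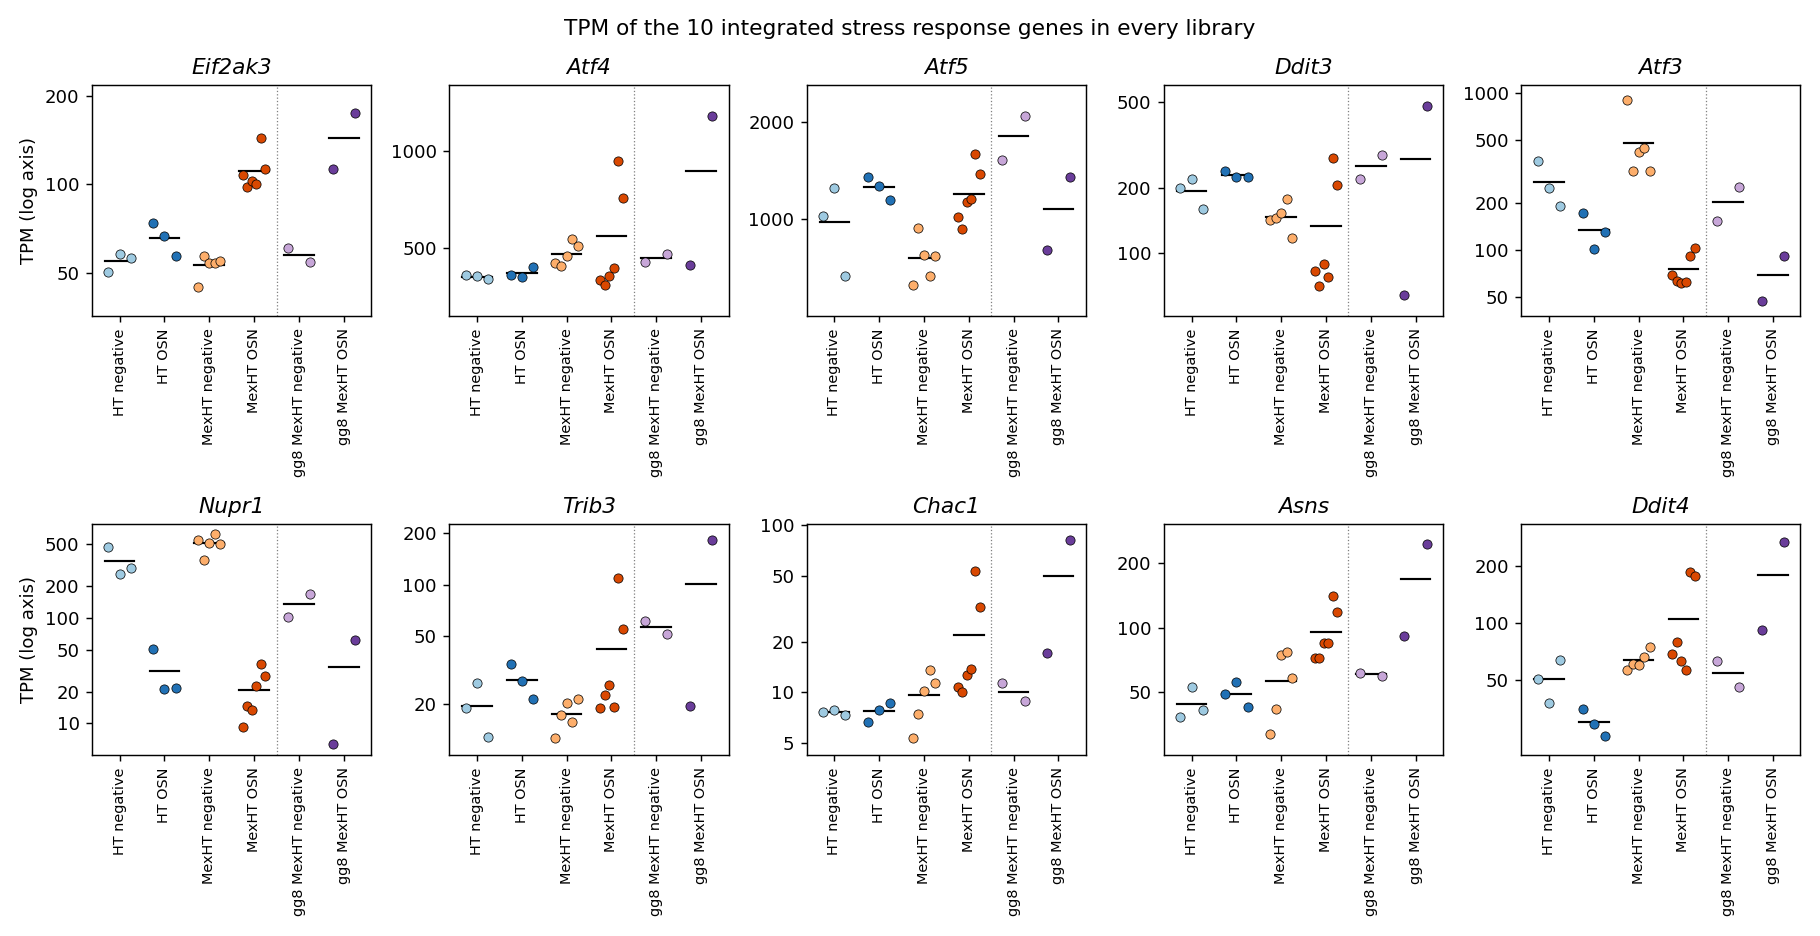
TPM on a log axis for the 10 members in all 21 libraries, 1 point per library and a line at the mean of each group; groups to the right of the dotted line come from the gg8 table, which was scaled separately. Eif2ak3 is higher in all 6 MexHT OSN libraries than in any HT OSN library, and 2 MexHT OSN libraries stand above the other 4 in every panel.

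The first question is how neurons with Mex3a joined to HyperTRIBE differ from neurons with HyperTRIBE alone. Eif2ak3, Asns and Ddit4 rose and Atf3 fell, while the other 6 members did not pass the test. That is 4 of 10 members, against 36.8% of all 16067 genes tested (limma, adjusted p under 0.05). The median difference over the members was 0.28 on the log2 scale, and over all genes it was 0.03. Libraries of the groups did not overlap for 4 members, Eif2ak3, Chac1, Asns and Ddit4, against 38.4% of all genes tested.

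Eif2ak3, the PERK kinase gene, lies at chr6:70844484-70905241. It was at 73.9, 66.8 and 57.1 TPM in the HT OSN replicates 1 to 3. In MexHT OSN replicates 1 to 6 it was at 108, 98.1, 103, 101, 144 and 113 TPM. Every MexHT OSN library was above every HT OSN library. The difference was 0.74 on the log2(TPM + 1) scale (SE 0.137, 1.67-fold, limma adjusted p = 0.00276), and it was 0.63 (0.00125) without MexHT OSN replicates 5 and 6. Leaving out both, here and below, was chosen after the data were seen, so the adjusted p of those fits are description only. In negative cells it was at 50.2 to 57.8 TPM in HT and 44.7 to 57.2 TPM in MexHT libraries, a difference of -0.05 (SE 0.118, adjusted p = 0.827). The construct difference in OSN exceeded that in negative cells by 0.79 (SE 0.180, adjusted p = 0.00993 for the interaction, over the 17 gg8+OMP libraries). With Xist as a covariate the interaction was 0.79 (0.0106). Xist itself had an interaction of only 0.105 (limma adjusted p = 0.976), so the covariate could hardly change that of Eif2ak3. In the comparison of OSN, the same covariate took the Eif2ak3 call away (0.68, SE 0.247 against 0.137 without it, limma adjusted p = 0.164).

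Atf4, the transcription factor translated when eIF2 is phosphorylated, was at 411, 406 and 435 TPM in HT OSN. In MexHT OSN replicates 1 to 4 it was at 396, 383, 408 and 433 TPM, and in replicates 5 and 6 at 929 and 716 TPM. The first 4 thus lay in or just below the HT range and the last 2 far above it. The difference of 0.29 (SE 0.275) did not pass the test (adjusted p = 0.425), and it was -0.04 without replicates 5 and 6. Atf5, the related factor of receptor feedback, lies at chr7:44812256-44816658. It was at 1347, 1266 and 1147 TPM in HT OSN. MexHT OSN replicates 1 to 6 had 1011, 929, 1130, 1152, 1592 and 1378 TPM. The groups overlapped: MexHT replicates 1 to 3 lay below the HT range, replicate 4 inside it, and replicates 5 and 6 above it. Its difference was -0.09 (SE 0.175, adjusted p = 0.726).

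Ddit3 encodes CHOP, a factor induced by ATF4 that is linked to cell death under long stress. It was at 239, 225 and 225 TPM in HT OSN. In MexHT OSN replicates 1 to 4 it was at 82.9, 70.6, 89.2 and 77.6 TPM, whereas replicates 5 and 6 had 276 and 207 TPM. So 5 of 6 MexHT libraries lay below all HT libraries, replicate 6 only just, and replicate 5 lay above them. The difference over all 9 libraries was -0.99 (SE 0.412, adjusted p = 0.0828). It passed without MexHT OSN replicate 5 (-1.24, 0.0113) and without replicate 6 (-1.16, 0.0484). Without both, a fit chosen after these values were seen, it was -1.51 (7.98e-05).

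Atf3, a factor induced by stress and also an immediate early gene, fell. It was at 172, 102 and 130 TPM in the HT OSN replicates and at 69.6, 64.0, 62.0, 62.4, 91.4 and 102 TPM in MexHT OSN replicates 1 to 6. The groups met at 102 TPM, where MexHT OSN replicate 6 was level with HT OSN replicate 2. The difference was -0.83 (SE 0.205, adjusted p = 0.0112), and the call was lost without HT OSN replicate 1 (-0.63, 0.0631). In negative cells it ran the other way and did not pass (0.77, SE 0.356, adjusted p = 0.26). The interaction was -1.59 (SE 0.423, adjusted p = 0.0221). Its call was lost without HT OSN replicate 1 (-1.40, 0.0655), HT negative replicate 2 (-1.56, 0.0565) or HT negative replicate 3 (-1.37, 0.0556). Nupr1, a small stress-induced chromatin protein, was at 51.2, 21.4 and 21.7 TPM in the HT OSN replicates and at 9.17 to 36.4 TPM (median 18.4) in MexHT OSN. The difference of -0.60 (SE 0.421) had an adjusted p of 0.281.

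The other 4 members are, like Ddit3, downstream of ATF4. Among them Ddit4 and Asns rose and Chac1 and Trib3 did not pass. Ddit4, also called REDD1, restrains mTORC1. It was at 35.2, 29.4 and 25.3 TPM in the HT OSN replicates and at 68.5, 79.2, 63.0, 56.3, 186 and 177 TPM in MexHT OSN replicates 1 to 6. All MexHT libraries were above all HT libraries, with replicates 5 and 6 highest. The difference was 1.61 (SE 0.387, 3.06-fold, adjusted p = 0.00939), and 1.13 (0.000712) without replicates 5 and 6.

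Asns, asparagine synthetase, was at 48.8, 56.0 and 42.3 TPM in HT OSN. In MexHT OSN it was at 71.8, 72.2, 85.1, 84.5, 140 and 119 TPM. No MexHT library was as low as an HT library, and the difference was 0.91 (SE 0.215, 1.88-fold, adjusted p = 0.00876), or 0.67 (0.00235) without replicates 5 and 6.

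Chac1, an enzyme that degrades glutathione, was at 6.63, 7.79 and 8.66 TPM in HT OSN. MexHT OSN had 10.8, 10.1, 12.7, 13.8, 53.0 and 32.3 TPM. The groups did not overlap, but the difference of 1.14 (SE 0.477) had an adjusted p of 0.085. Without replicates 5 and 6 it was smaller and passed (0.56, 0.0271). Trib3, a pseudokinase that binds and restrains ATF4, was at 34.4, 27.3 and 21.6 TPM in HT OSN. MexHT OSN replicates 1 to 4 had 19.0, 22.8, 26.1 and 19.3 TPM, in or below the HT range, and replicates 5 and 6 had 110 and 54.9 TPM. Its difference of 0.28 (SE 0.505) did not pass (adjusted p = 0.694) and was -0.06 without replicate 5.

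**Figure D2:**
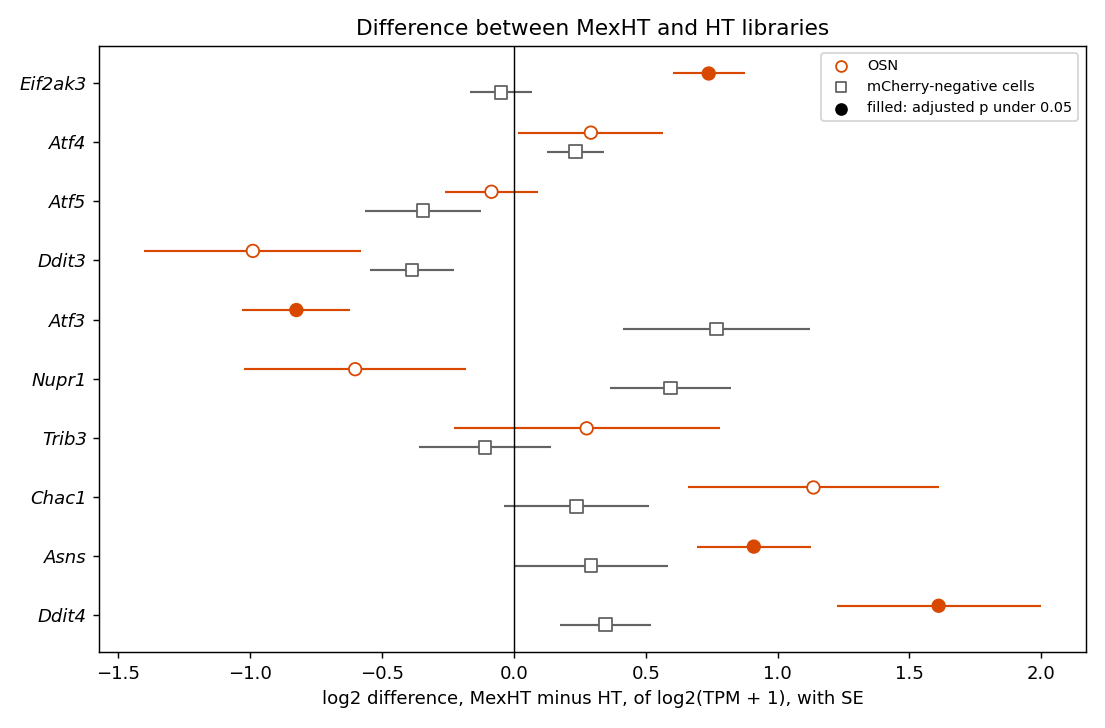
Difference between MexHT and HT libraries on the log2(TPM + 1) scale, with its standard error, for each member in OSN (circles) and in mCherry-negative cells (squares); filled marks passed an adjusted p of 0.05. In OSN, Eif2ak3, Asns and Ddit4 are filled above 0 and Atf3 below 0, and no mark is filled in negative cells.

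MexHT OSN replicates 5 and 6 were the 2 highest of the 6 for all 10 members, which held for 26.4% of 15561 genes whose mean reached 1 TPM. Both also had the highest Mex3a of the group. They were below the other 4 libraries in 9 of 12 mature OSN markers, where 22.0% of all genes were, and in 7 of 12 immature OSN markers. They were above the other 4 in 8 of 10 progenitor and cycling cell markers, 7 of 8 sustentacular cell markers and 8 of 10 macrophage markers. Progenitor markers summed to 960 TPM in replicate 5 and 449 TPM in replicate 6, and to 193 to 218 TPM in the other 4. Replicate 5 had the least Omp (682 TPM) and Adcy3 (57.0 TPM) of the group. The part of Mex3a level or cell makeup in the members' levels was not tested.

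**Figure D3:**
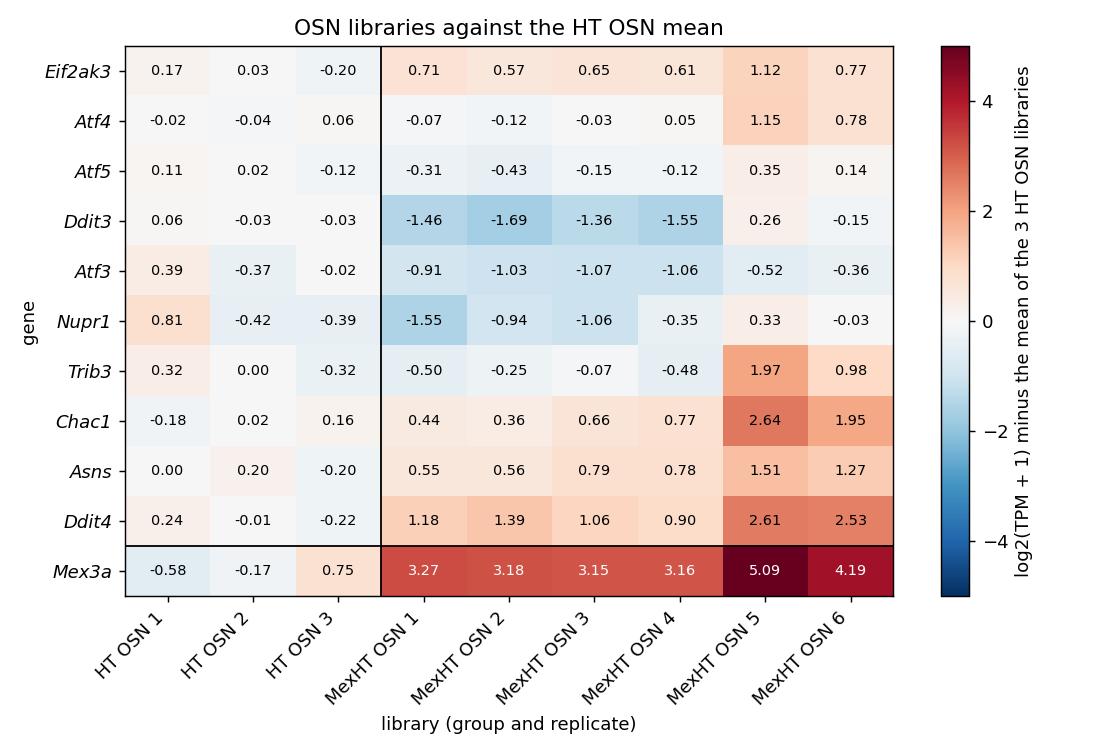
Each OSN library of the gg8+OMP table against the mean of the 3 HT OSN libraries, as the difference in log2(TPM + 1), for the 10 members and Mex3a. Eif2ak3, Asns, Chac1 and Ddit4 are above 0 in all 6 MexHT OSN libraries, Ddit3 is between -1.36 and -1.69 in replicates 1 to 4 and at 0.26 in replicate 5, and Mex3a is highest in replicates 5 and 6.

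Other features moved with the construct in OSN. Mature OSN markers were lower for 10 of 12 and immature OSN markers higher for 8 of 12. Of all 16067 genes tested, 3202 were higher and 2705 lower. Progenitor and cycling cell markers had 2 of 10 higher, which is near the share over all genes. Macrophage markers were lower in MexHT OSN for 10 of 10 (median -2.59), with sums of 1008 to 4490 TPM in HT OSN against 211 to 424 TPM in MexHT OSN and none at 0. The highest sum was in HT OSN replicate 3. Without that library the 4 calls stood, at 0.64 for Eif2ak3, 0.81 for Asns, 1.499 for Ddit4 and -0.83 for Atf3. HT OSN replicates 1 and 2 still summed to 1266 and 1008 TPM, above all MexHT OSN libraries, so that fit cannot bear on macrophage RNA. Xist, expressed from the inactive X, was at 0.126, 60.3 and 0.140 TPM in the HT OSN replicates and at 58.4 to 140 TPM in MexHT OSN. With the Xist level as a covariate only 329 genes passed and all 4 member calls were lost, with 0.68 for Eif2ak3 (adjusted p = 0.164), 0.55 for Asns (0.4), 1.46 for Ddit4 (0.261) and -0.45 for Atf3 (0.464). The differences without the covariate were 0.74, 0.91, 1.61 and -0.83. The SE rose for all 4, from 0.137 to 0.247 for Eif2ak3, 0.215 to 0.361 for Asns, 0.387 to 0.692 for Ddit4 and 0.205 to 0.339 for Atf3. HT OSN replicate 2 was the 1 control library with Xist. It lay below all MexHT OSN libraries in Eif2ak3 (66.8 TPM), Asns (56.0 TPM) and Ddit4 (29.4 TPM), which the lack of overlap between the groups already includes. In Atf3 it was not separated from MexHT OSN, at 101.6 TPM against 102.4 TPM in MexHT OSN replicate 6. The part of Xist-linked differences in the 4 calls was not tested beyond the covariate. The part of macrophage RNA and maturity in these differences was not tested, and Xist level and construct are confounded in part.

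The same comparison in negative cells called 0% of 16860 genes (limma, with 3465 genes at an unadjusted p under 0.05 and 0 genes by voom on recovered counts) and none of the 10 members. Unadjusted p was under 0.05 for Ddit3 (-0.39, SE 0.158, adjusted p = 0.231) and Nupr1 (0.59, SE 0.230, adjusted p = 0.222). Atf4 was the only member whose groups did not overlap there, at 398 to 412 TPM in HT negative and 439 to 531 TPM in MexHT negative libraries, against 8.71% of all genes (0.23, SE 0.109, adjusted p = 0.261). As no gene passed there, no marker list could have a gene called, so the lack of calls does not show an equal cell makeup. Mature OSN markers had a median difference of -1.63, against -0.01 over all genes. The median was 0.79 for progenitor and cycling cell markers and 1.01 for basal cell markers. Progenitor and cycling cell markers summed to 525.6 to 1292 TPM in HT and 610 to 1748 TPM in MexHT libraries. In the interaction, 12.4% of 16785 genes and 2 of 10 members passed, Eif2ak3 and Atf3. Of the genes that passed the interaction 56.8% were positive, against 40.4% after median-of-ratios scaling and 35.4% with voom, and Eif2ak3 and Atf3 kept their direction under both. Nupr1 (-1.20, SE 0.521, adjusted p = 0.145) passed the interaction with the mouse number as replicate block (-1.31, 0.0398).

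Genes around the members were counted in lists for MexHT OSN against HT OSN, where 36.8% of all genes passed in either direction. Among the other eIF2 kinases and the phosphatase subunits, Eif2ak1 (HRI, the heme-regulated kinase) rose by 0.55 (adjusted p = 0.00179), Eif2ak2 (PKR, the kinase that senses double-stranded RNA) was lower (-1.36, 0.00361), and the other 3 of 5 did not pass. Ppp1r15a (GADD34, which guides eIF2 dephosphorylation) was at 202 to 271 TPM in HT OSN, 133 to 148 TPM in MexHT OSN replicates 1 to 4 and 332 and 262 TPM in replicates 5 and 6, the arrangement seen for Ddit3. Of the eIF2 and eIF2B subunits, 3 of 8 rose, Eif2s2 (0.71), Eif2b5 (0.59) and Eif2b1 (0.37), and none fell (median 0.34). That count is close to the share over all genes. Cytosolic aminoacyl-tRNA synthetases, which charge tRNAs and include targets of ATF4, rose for 6 of 12 with none lower (median 0.38, all genes 0.03), led by Tars (0.74, adjusted p = 0.00142) and Yars (0.72, 0.00885).

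Other ATF4 targets were mixed, with 4 of 24 higher and 3 lower (median 0.17). The 4 that rose were Psat1 (1.29), Sesn2 (1.14), Shmt2 (1.11) and Mthfd2 (0.76), of which Psat1, Shmt2 and Mthfd2 are enzymes of serine and one-carbon metabolism and Sesn2 restrains mTORC1. The 3 that fell were Jdp2 (-1.35), Pck2 (-1.30) and Cebpb (-0.64). For the other branches of the ER stress response, among genes of the IRE1 and ATF6 branches Mbtps1 rose (0.43), Creb3l1 (-2.88) and Atf6 (-1.12) fell, and 6 of 9 did not pass. None of 18 ER chaperone genes rose, and Dnajc3 (-0.83), Sel1l (-0.68) and Edem1 (-0.55) fell. Hspa5, the ER chaperone BiP, was at 505 to 549 TPM in the HT OSN replicates and at 403 to 459 TPM in 5 MexHT OSN libraries, with 740 TPM in replicate 5.

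Among genes of receptor feedback, Adcy3, the adenylyl cyclase that ends the feedback signal, fell to 57.0 to 243 TPM from 693 to 1088 TPM (-2.72, adjusted p = 0.000765), and Rtp1, a receptor transporter, fell by 0.89 (0.0432). Kdm1a (LSD1, the demethylase of receptor choice) rose by 1.00 (0.000711), from 158 to 168 TPM in HT OSN to 279 to 419 TPM in MexHT OSN, and Lhx2 (0.57) and Ldb1 (0.30), a factor and its cofactor at receptor enhancers, rose with it. Rtp2 and Reep1 did not pass. The immediate early genes had 1 of 14 higher, Klf4 (0.79), and 3 lower, Ier3 (-2.01), Zfp36 (-1.76) and Ier2 (-0.86). The other 10 did not pass, and the median of the list was 0.08.

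Sorting was examined by setting OSN against negative cells. In MexHT mice, Atf5, Eif2ak3 and Asns were higher in OSN and Atf3 and Nupr1 lower, 5 of 10 members against 63.4% of 16522 genes, with a median of 0.60 over members and 0.16 over all genes (0.03 after median-of-ratios scaling). In HT mice Nupr1 alone passed, 1 of 10 members against 11.3% of 17027 genes. A fit with the mouse as replicate block raised the HT count from 1923 to 4967 genes, and Atf3 (-0.98, adjusted p = 0.0125) and Ddit4 (-0.72, 0.05) then passed as lower in HT OSN. The count ran from 660 genes without HT negative replicate 1 to 4183 without HT negative replicate 2, where Ddit4 also passed (-0.91, 0.0245).

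Nupr1 had the largest difference of the members. It was at 467, 264 and 301 TPM in HT negative and at 359 to 629 TPM (median 513) in MexHT negative libraries, against 9.17 to 51.2 TPM over all OSN libraries of both constructs. It was 11.2-fold lower in OSN of HT mice (-3.49, SE 0.373, adjusted p = 0.00339) and 25.7-fold lower in OSN of MexHT mice (-4.69, SE 0.297, adjusted p = 5.91e-08). Granulocyte markers were lower in OSN for 9 of 9 in both, with sums of 6333 to 16390 TPM in negative and 159 to 462 TPM in OSN libraries. Connective tissue and vessel markers were lower for 5 of 6 in HT and 6 of 6 in MexHT mice, with sums of 7832 to 23580 TPM in negative and 95.1 to 325 TPM in OSN libraries. Their part in the Nupr1 level was not tested.

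Atf3 was at 371, 248 and 191 TPM in HT negative libraries. It was at 900, 319, 418, 448 and 320 TPM in MexHT negative replicates 1 to 5, all above every OSN library. The difference in MexHT mice was -2.57 (SE 0.249, adjusted p = 2.34e-06). In HT mice it was -0.98 (SE 0.283, adjusted p = 0.0698 without the block). Immediate early genes were lower in OSN for 14 of 14 in MexHT mice (median -1.40) and 5 of 14 in HT mice (median -1.004). Their sums were 3979 to 10240 TPM in negative and 2168 to 3101 TPM in OSN libraries of the gg8+OMP table, with the highest in MexHT negative replicate 1, the library with the most Atf3. That library also had the most sustentacular (2368 TPM), basal (1206 TPM) and ensheathing glia (991.6 TPM) marker RNA of the MexHT negative libraries. It had the least granulocyte (12230 TPM) and connective tissue and vessel (11080 TPM) marker RNA among them. The part of immediate early genes or of cell makeup in the Atf3 level was not tested.

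Atf5 was higher in OSN than in negative cells of the same mouse in 3 of 3 HT mice, by 0.02 to 0.78 on the log2 scale. In MexHT mice it was higher in 4 of 5, by up to 1.05, and at -0.02 in the mouse of replicate 2. The MexHT difference passed (0.66, SE 0.155, adjusted p = 0.00263) and the HT difference did not (0.40, SE 0.249, adjusted p = 0.29). Fits with no block named, the interaction included, leave out the mouse. With the mouse as replicate block the HT difference did not pass either (0.40, SE 0.166, limma adjusted p = 0.122). The interaction did not pass (0.26, SE 0.285, adjusted p = 0.6), so a difference between the constructs was not shown. Eif2ak3 was higher in OSN in 5 of 5 MexHT mice (0.77 to 1.38) and in 3 of 3 HT mice (0.02 to 0.55). Its MexHT difference was 1.05 (SE 0.114, adjusted p = 6.39e-06) and its HT difference 0.26 (SE 0.130, adjusted p = 0.203).

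Asns was higher in OSN in 5 of 5 MexHT mice (0.13 to 1.25) and passed there (0.77, SE 0.248, adjusted p = 0.0156), a call lost without OSN replicates 5 and 6 (0.54, 0.0741). Trib3 (0.91, SE 0.402) and Chac1 (0.91, SE 0.407) missed the threshold in MexHT mice with adjusted p of 0.0643 and 0.0683. With the mouse as replicate block both passed (0.77, 0.0422 and 0.74, 0.0491). Leaving out MexHT OSN replicate 1 also took both past the threshold (0.0402 and 0.0488), as did leaving out replicate 4 for Trib3 (0.0413) and replicate 2 for Chac1 (0.0428). Without OSN replicates 5 and 6 they were at 0.31 (adjusted p = 0.125) and 0.33 (0.25). Ddit3 was lower in OSN in 4 of 5 MexHT mice and 1.22 higher in the mouse of replicate 5, while it was 0.03 to 0.49 higher in OSN of the 3 HT mice. Its MexHT difference was -0.34 (SE 0.332, adjusted p = 0.383) over all libraries and -0.87 (0.000131) without OSN replicates 5 and 6. Ddit4 was lower in OSN in 3 of 3 HT mice (-1.30 to -0.35) and higher in 4 of 5 MexHT mice (-0.23 to 1.31), and the interaction of 1.26 (SE 0.469) had an adjusted p of 0.0877. Atf4 differed by 0.10 (SE 0.221, adjusted p = 0.718) in MexHT and 0.04 (SE 0.101, adjusted p = 0.81) in HT mice. The MexHT and HT comparisons use different libraries, and each shares its OSN libraries with the comparison of constructs above.

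**Figure D4:**
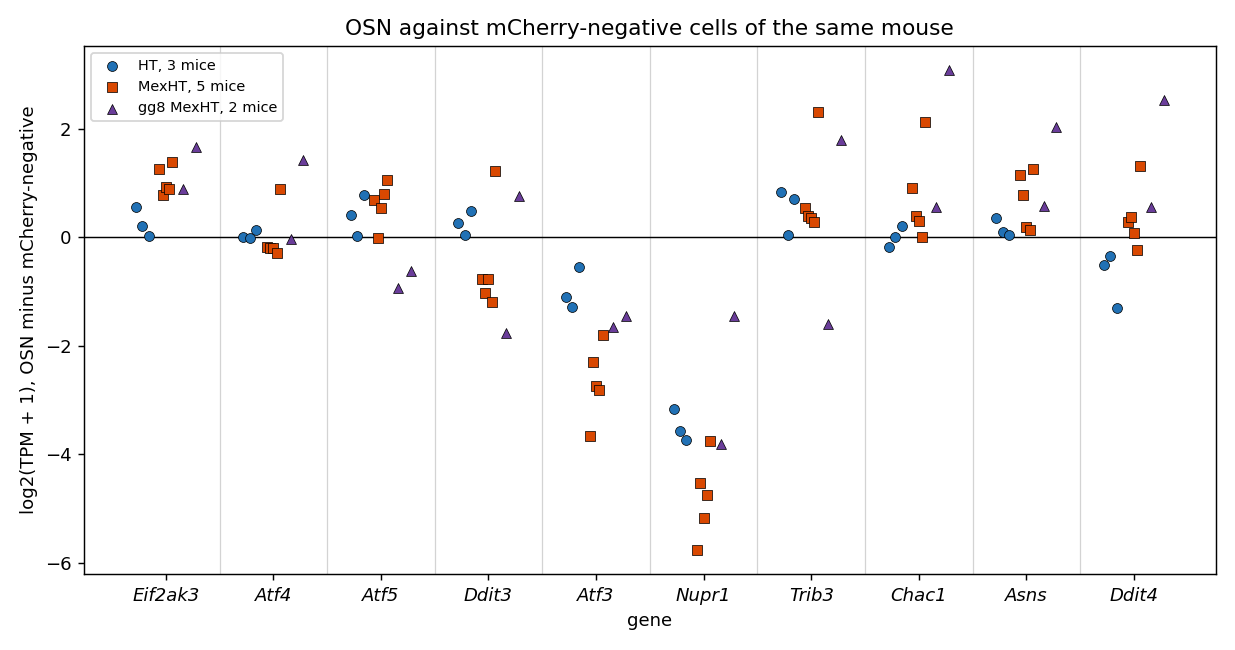
Difference in log2(TPM + 1) between OSN and mCherry-negative cells of the same mouse for each member, 1 mark per mouse (3 HT, 5 MexHT, 2 gg8 MexHT). Nupr1 and Atf3 are below 0 in all 10 mice and Eif2ak3 is above 0 in all 10, while Ddit3 lies on both sides in MexHT and gg8 MexHT mice.

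The gg8 table holds OSN sorted with the driver of immature neurons alone. None of the 10 members passed between gg8 MexHT OSN and gg8 MexHT negative cells, against 8.32% of 16490 genes, with 2 libraries a group. The 2 OSN libraries stood far apart. Replicate 2 had the greatest depth of the 21 libraries (15215941 counts) but the fewest genes at 1 TPM or more, 13917 against 16398 in replicate 1. Ddit3 was at 64.5 TPM in replicate 1 and 478 TPM in replicate 2. Trib3 was at 19.5 and 182 TPM, Chac1 at 17.1 and 81.9 TPM, and Nupr1 at 6.31 and 61.6 TPM. These ratios of replicate 2 to replicate 1 ran from 4.79 (Chac1) to 9.75 (Nupr1), and at least 99.1% of the 15171 genes whose mean reached 1 TPM had a smaller one, where the median of all genes was 0.90. The other 6 members had ratios from 1.54 (Eif2ak3) to 2.91 (Atf4). Replicate 2 also had more Mex3a (1632 against 460 TPM), less Gap43 (93.8 against 672 TPM), less Omp (53.8 against 164 TPM) and more progenitor and cycling cell marker RNA (1148 against 243 TPM). Their part in the members' levels was not tested. Xist was at 0.441 TPM in OSN replicate 1 and 159 TPM in OSN replicate 2, and at 0.144 and 21.4 TPM in the negative libraries of the same numbers.

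In both gg8 mice Eif2ak3 was higher in OSN (113 and 175 TPM) than in negative cells (60.9 and 54.5 TPM), a difference of 1.27 (SE 0.324, adjusted p = 0.0616). Chac1 (1.81, SE 0.730, adjusted p = 0.151), Ddit4 (1.53, SE 0.516, adjusted p = 0.108) and Asns (1.30, SE 0.474, adjusted p = 0.127) were also higher in OSN of both mice without passing. Atf3 (-1.55, SE 0.416, adjusted p = 0.0685) and Nupr1 (-2.64, SE 0.929, adjusted p = 0.118) were lower in both, and passed with the mouse as replicate block (0.0318 and 0.03). That block rests on the labels alone: Xist differed between the libraries numbered 2, so the pairing is in doubt. Deviations of same-numbered libraries correlated at only 0.018, a value inside the range of the MexHT mice (-0.109 to 0.421). Atf5 ran opposite to the gg8+OMP mice, at 1522 and 2083 TPM in negative cells and 800 and 1346 TPM in OSN (-0.78, SE 0.372, adjusted p = 0.204). Mature OSN markers were lower in these OSN for 9 of 12, with sums of 318.3 to 829.3 TPM against 7535 to 13470 TPM in the negative cells. The part of these neurons in the Atf5 level was not tested. Libraries did not overlap for 7 of 10 members, against 63.6% of all genes. Leaving out OSN replicate 1 left replicate 2 as the only OSN library, so the differences alone are given. Atf4 was then at 1.465, Eif2ak3 at 1.583, Trib3 at 1.674, Chac1 at 2.912, Asns at 2.002 and Ddit4 at 2.297. Ddit3 was at 0.9331, Atf5 at -0.4035, Atf3 at -1.091 and Nupr1 at -1.089. Without OSN replicate 2, Eif2ak3, Chac1, Asns and Ddit4 were at 0.9636, 0.715, 0.5894 and 0.7693. Atf4, Trib3 and Ddit3 were then at -0.07514, -1.481 and -1.938, and Atf5, Atf3 and Nupr1 stayed negative.

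Across the 17 gg8+OMP libraries the members did not form a single pattern, as described by Pearson r of log2(TPM + 1). These libraries share kit and scaling but mix OSN with negative cells of both constructs. Differences between those groups enter every r, so the values describe the set and carry no test. Chac1 was most like Asns (0.90) and Atf4 (0.89), and Atf3 most like Nupr1 (0.93). Eif2ak3 stood with Asns (0.82) and against Atf3 (-0.85). Ddit3 was weakly related to all others, from -0.24 with Eif2ak3 to 0.44 with Trib3. Atf5 stood closest to Trib3 (0.80). Outside the list, among 12429 genes whose mean reached 5 TPM, the genes most like Atf5 were Psmc5 (0.943), Mul1 (0.931), Cox19 (0.926), Smg5 (0.923) and Hid1 (0.922). Eif2ak3 was most like Foxk1 (0.981), Yars (0.981) and Cops7b (0.979), and Nupr1 most like Anxa2 (0.989), Tagln2 (0.988) and Tcf7l1 (0.986). For Atf4 they were Gadd45gip1 (0.938), Slc39a7 (0.928) and Alkbh5 (0.927), and for Atf3 Ces1d (0.976), Pdlim3 (0.973) and Ackr3 (0.972). For Ddit3 they were Rnf6 (0.948), Erlin1 (0.935) and Akt2 (0.916), and for Trib3 Eif2b4 (0.929), Med22 (0.927) and the ATF4 target Slc7a5 (0.918). Chac1 went with Psmd11 (0.958), Actr1a (0.955) and Gtf2f1 (0.953), Asns with Kin (0.962), Psmd7 (0.941) and Gars (0.937), and Ddit4 with Prelid1 (0.942), Ssna1 (0.941) and Aes (0.941).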

How the data were processed

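RNA of sorted main olfactory epithelium cells was measured in 21 libraries made, per the labels, with papain dissociation, TRIzol and a stranded low-input total RNA kit from 10 ng of RNA. The authors deposited 2 tables of TPM values, for 17 gg8+OMP and 4 gg8 libraries, each scaled on its own, so no test crosses them. The submitters' processing notes name FastQC, cutadapt, STAR, bedtools and the build mm10; the counting program, the annotation and the use of strand are not given in the sources used here, so reads shared with overlapping genes cannot be told apart. Genes with symbols turned into dates (27 in either table) were left out.

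Values within a gene were whole multiples of a step, which gave whole counts for 99.996% of 23614 genes (tolerance 0.001 counts) and, in the gg8 table, for 99.85% of 22812 genes (0.02 counts). Comparisons were fitted with limma 3.58.1 in R 4.3.3 with a mean-variance trend, taking log2(TPM + 1) of genes whose mean over the fitted libraries reached 1 TPM, two-sided, with Benjamini-Hochberg adjustment over all genes and a threshold of 0.05. This scale understates changes of low genes. The fit was tested on simulated data. Each of 5 comparisons used only its 2 groups, and the interaction used all 17 libraries. The alternatives were another pseudocount, no filter, median-of-ratios scaling, limma voom on recovered counts, the replicate number as a block, Xist as a covariate, all 4 groups in 1 fit, and leaving out each library; leaving out MexHT OSN replicates 5 and 6 together was chosen after seeing the data. Tables and figures were made with pandas 2.3.3 and matplotlib 3.10.9 in Python 3.11.15.

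The members, gene lists and tests were chosen with earlier results of these data known. All 10 members were named with their values, and from the lists up to 4 genes past the threshold per direction; Ppp1r15a, Hspa5 and the markers given by level were chosen after their values were seen. The 5 genes (for Atf5) or 3 genes (for the others) with the highest Pearson r were named, leaving out predicted and microRNA genes. OSN and negative libraries with the same number come from the same mouse per the labels, and their deviations from the group means correlated at -0.109 to 0.421 in MexHT, 0.174 to 0.475 in HT and 0.018 in gg8 mice. MexHT OSN replicates 1 and 3 were closest to MexHT negative replicate 2, and HT OSN replicate 1 to HT negative replicate 2. The blocks by mouse thus rest on the labels in MexHT and HT mice as well. MexHT and HT negative libraries of the same number deviated together (r of 0.337, 0.418 and 0.231 over genes), and the block called 0 genes there as well. Lists for sustentacular cells, basal cells, ensheathing glia and red blood cells were also counted; in MexHT OSN against HT OSN they had 0, 0, 0 and 0 genes higher and 1 of 8, 1 of 4, 0 of 6 and 0 of 1 lower. Granulocyte markers had 0 of 9 called there and connective tissue and vessel markers 1 of 5, lower.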

Additional observations from a re-analysis of the deposited data

Results flagged for a closer look

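Each of the 10 members was examined in the MexHT negative (5) and MexHT OSN (6) libraries, 20 sets of values. In 3 sets a library stood apart from the others by more than Dixon's 95% limit. Chance flags about 1 in 20 sets, but these sets share the same libraries and are not independent. Atf3 in MexHT negative cells was highest in replicate 1, at 900.4 TPM, and Eif2ak3 in MexHT negative cells was lowest in the same library, at 44.67 TPM. Eif2ak3 in MexHT OSN was highest in replicate 5, at 144.1 TPM.

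The construct difference in OSN differed from that in negative cells for Atf3 (-1.593 on the log2 scale, adjusted p = 0.0221) and for Eif2ak3 (0.788, adjusted p = 0.00993), by the limma interaction over 17 libraries.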

How the results depend on the processing

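Of 218 values of the 12 called member results under alternatives, 209 stayed past the threshold in the same direction and 9 lost the call, and none changed sign. Of 732 values of members not called, 31 passed and 34 changed sign. With the Xist covariate, 329 genes passed for MexHT OSN against HT OSN in place of 5907, and the cause was not tested. In MexHT negative against HT negative, 1 gene passed with no filter and 24 with all 4 groups in 1 fit. For HT OSN against HT negative, voom called 1038 genes and the replicate block 4967 in place of 1923. For gg8 MexHT OSN against negative cells, a pseudocount of 0.1 TPM called 646 genes in place of 1372. Leaving out 1 library gave 3745 to 6506 genes for MexHT OSN against HT OSN (3745 without HT OSN replicate 1, 3886 without HT OSN replicate 2), 0 to 4 for the negative cells, 9623 to 10713 for MexHT OSN against negative cells, 660 to 4183 for HT OSN against negative cells, 0 to 3703 for gg8, and 1195 to 2483 for the interaction (1195 without HT negative replicate 2). In the gg8 fits that leave 1 library in a group, that library is assumed to vary like the other group.

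The replicate block in MexHT OSN against HT OSN called 4801 genes. The numbers are shared there without a shared mouse (r of 0.115, 0.132 and -0.228, and not every library was closest to its own number), and replicates 4 to 6 add nothing to that fit. It gave -1.5 for Ddit3 (adjusted p = 0.00549), -0.0763 for Atf4 and -0.273 for Trib3. The block also changed the sign of Chac1 in MexHT negative against HT negative (-0.0333), and of Atf4 in MexHT OSN against negative cells (-0.0002452) and in the interaction (-0.0387), where Nupr1 then passed (-1.31, 0.0398). Beyond these and the calls given with the results, it changed no call of a member.

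Members near 0 changed sign in other fits. With the Xist covariate Trib3 in MexHT OSN against HT OSN was at -0.004117 and Asns in MexHT negative against HT negative at -0.17. With median-of-ratios scaling Atf4 was at -0.0420 in MexHT OSN against negative cells, -0.0394 in HT OSN against negative cells and -0.0465 in the interaction, and Chac1 at -0.0624 in HT OSN against negative cells; with voom these were -0.0545, -0.0312, -0.0595 and -0.0674. Without both MexHT OSN libraries 5 and 6, Atf4 was at -0.0439 and Trib3 at -0.324 in MexHT OSN against HT OSN, Atf4 at -0.24 in MexHT OSN against negative cells (adjusted p = 0.0299), and Atf4 at -0.28 and Trib3 at -0.22 in the interaction, where Ddit3 (-1.13, 0.00206), Ddit4 (0.78, 0.0357) and Nupr1 (-1.57, 0.0288) passed. Leaving out 1 library gave -0.0634 to 0.437 for Trib3 in MexHT OSN against HT OSN, and -0.36 to 0.14 for Trib3 and -0.108 to 0.0105 for Eif2ak3 in the negative cells. It gave -0.0754 to 0.180 for Atf4 in MexHT OSN against negative cells, -0.0727 to 0.0976 for Chac1 in HT OSN against negative cells and -0.11 to 0.14 for Atf4 in the interaction. In gg8 it gave -1.94 to 0.93 for Ddit3, -1.48 to 1.67 for Trib3 and -0.0751 to 1.465 for Atf4. With all 4 groups in 1 fit, Ddit3 (0.0333) and Chac1 (0.0432) passed in MexHT OSN against HT OSN, and Trib3 (0.0413) and Chac1 (0.0354) in MexHT OSN against negative cells. The depth gave at least 14 counts for every member. Counts were lowest for Nupr1 in OSN, at 14 in gg8 MexHT OSN replicate 1 and 19 to 94 in MexHT OSN, and for Chac1 in HT OSN and the negative cells, at 29 to 75.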
